A study of Arabidopsis thaliana with 5 samples.

Results

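The 9 loci described here are genes of the pericycle and of the first steps of lateral root formation in Arabidopsis thaliana: ARF7, ARF19, LBD16, LBD18, LBD29, GATA23, SKOR, PHO1 and AHP6. They were chosen by locus from what is known of them, with earlier results of these data known. All 9 were among the 33602 measured loci. RNA came from nuclei sorted for GFP out of root tips of 0.5 cm, cut from seedlings of 5 days, with 120000 nuclei per library. Both genotypes carried a GUS-GFP fusion driven by the SMR1 promoter, so the nuclei were selected by that reporter. The 3 smr1 libraries (replicates 1, 2 and 4) come from plants mutated in SMR1, which encodes an inhibitor of cyclin-dependent kinases. The 2 Col-0 libraries (replicates 2 and 4) come from the wild-type accession with the same reporter. The series' design text calls the libraries biological replicates. The kind of smr1 mutation is not given in the sources used here, and about 10000 seeds were sown, so a library is a pool of many plants.

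Lateral roots start in the pericycle, the layer of cells just inside the endodermis, where cells next to the xylem poles respond to auxin, divide and build a primordium. ARF7 and ARF19 are transcription factors that turn on auxin-responsive genes once auxin has removed their Aux/IAA repressors. LBD16, LBD18 and LBD29 are transcription factors of the LOB domain family that act below these ARFs, and GATA23 marks and specifies founder cells. SKOR is a potassium channel and PHO1 a phosphate exporter, and both serve the loading of ions into the xylem. AHP6 is a pseudo-phosphotransfer protein that dampens cytokinin signalling at the protoxylem and the pericycle beside it.

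In TAIR10.1 the 9 loci lie on 4 chromosomes: ARF7 (AT5G20730, chr5:7016445-7022179) and ARF19 (AT1G19220, chr1:6627683-6633133) on the minus strand, and LBD16 (AT2G42430, chr2:17663353-17665337) and LBD18 (AT2G45420, chr2:18718348-18720729) on the plus strand. LBD29 (AT3G58190, chr3:21548484-21549572) is on the minus strand and GATA23 (AT5G26930, chr5:9479424-9480200) on the plus strand. SKOR (AT3G02850, chr3:619678-623739) and PHO1 (AT3G23430, chr3:8387398-8393467) are on the minus strand, and AHP6 (AT1G80100, chr1:30133718-30134937) is on the plus strand. Reads were summed over the coding models of each locus.

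The coding models used for the counts can be compared with the RefSeq annotation of TAIR10.1, an assembly that differs in name from the TAIR10 build of the labels. Of 34613 models present in both, 96.47% had the same coding length, and the deposited models of all 9 loci did. ARF7 (AT5G20730) was the only one of the 9 whose expected counts were not whole to within 0.001 reads, since its reads were divided between 2 of its 3 models. Models 1 and 2 differ by 3 bases at the end of coding exon 8 of 13, and that stretch is shown because it is all that tells the 2 models apart. It lies on chromosome 5 at chr5:7019809-7019847 of TAIR10.1 and is read here on the minus strand, 5′ to 3′. Capitals mark the 3 bases that model 1 keeps as exon and model 2 removes with the intron.
ARF7 gene: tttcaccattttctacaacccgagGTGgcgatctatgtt
ARF7 model 1 mRNA: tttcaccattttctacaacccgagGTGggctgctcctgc
ARF7 model 2 mRNA: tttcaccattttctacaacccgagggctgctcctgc
The intron of model 1 begins with GC, and that of model 2 begins with GT.

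Nearly all ARF7 reads were assigned to model 2, the shorter of these forms, in both genotypes. Model 1 took 3.57%, 9.59e-10% and 1.78% of the reads of the locus in smr1 replicates 1, 2 and 4. In Col-0 it took 1.75% and 4.33% in replicates 2 and 4. The genotypes overlapped, and smr1 replicate 2 stood apart with practically no reads on model 1. Model 3 was at 0 reads in every library. The shares of models 1 and 2 are estimates that rest on reads across 1 junction, whose number is not in the files, and no test was made of them. All other results for ARF7 use the sum over its models.

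The remaining 8 loci had whole counts in every model and library. No stretch of 31 bases in the coding models of 8 of the 9 loci was found in those of another locus, and ARF19 shared 9 of its 3231 such stretches with 15 other loci. SKOR, ARF7 and ARF19 overlap a neighbouring gene in the annotation by 9, 254 and 6 bases, and none of these overlaps reached coding sequence.

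Proteins of the ARF family bind the auxin response element TGTCTC, and the 1000 bases before the annotated start of each locus were searched for it on both strands (GAGACA on the other). It was found before 5 of the 9 loci (55.6%), against 39.2% of 32835 loci with such a window. Windows were not trimmed at neighbouring genes. The 4 genes placed below the ARFs, GATA23, LBD16, LBD18 and LBD29, each held 1 element, and ARF19 did as well. The stretches around the elements of those 4 genes are shown, since the levels of these genes are set beside those of the ARFs below. They run 5′ to 3′ on the strand of the gene, from TAIR10.1, with the element in capitals, and the positions are chr5:9479148-9479177 for GATA23 and chr2:17662667-17662696 for LBD16. For LBD18 and LBD29 they are chr2:18717373-18717402 and chr3:21550156-21550185.
GATA23: gcttcattccttTGTCTCtgtcttcatgtg
LBD16: tccattattgatTGTCTCcttagaatccaa
LBD18: atacgcgtggagGAGACAttgaggaagcac
LBD29: atgttgtagtttGAGACAgaataatgatga
The elements begin 264, 674, 963 and 601 bases before the starts of GATA23, LBD16, LBD18 and LBD29. No element was found before SKOR, PHO1, AHP6 or ARF7 in this window. A match is a stretch of letters and not a measured binding site.

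Library totals ranged from 24918795 to 26823753 reads. Counts are given as CPM, the read count relative to the library total after scaling by TMM factors, and 3 reads in a library, the floor taken for detection, equal 0.112 to 0.120 CPM before that scaling. The floor covers counting error only. SMR1 itself was at 6.02, 4.70 and 7.06 CPM in smr1 replicates 1, 2 and 4, against 10.97 and 21.6 CPM in Col-0 replicates 2 and 4. The 3 smr1 values were all under the 2 Col-0 values, with a log2 fold change of -1.46 that did not pass the threshold (edgeR adjusted p = 0.725). That change was -0.90 without Col-0 replicate 4, and DESeq2 called SMR1 lower (adjusted p = 0.0115).

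The 9 genes spread over a wide range of levels, and the 2 ARFs were far above the rest. Levels between genes are compared in TPM, which is corrected for length. ARF19 had 32.1 ± 4.95 TPM in smr1 (SD, n = 3) and 32.4 ± 6.14 TPM in Col-0 (SD, n = 2). ARF7 had 20.01 ± 1.18 TPM in smr1 and 20.5 ± 1.84 TPM in Col-0. In level, ARF19 had rank 1 and ARF7 rank 3 among 23 annotated ARF genes in both genotypes, where the family median was 1.25 TPM in smr1 and 1.11 TPM in Col-0.

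LBD18 came next with 7.25 ± 0.285 TPM in smr1 and 8.33 ± 1.19 TPM in Col-0. LBD16 followed with 3.20 ± 0.572 TPM in smr1 and 2.53 ± 0.796 TPM in Col-0. These 2 genes lay above the median of the 40 annotated LBD genes, which was 0.377 TPM in smr1 and 0.217 TPM in Col-0, and LBD29 lay below it. By mean TPM, LBD18 had rank 10 in smr1 and rank 9 in Col-0 within that family.

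The other 5 genes, among them SKOR, PHO1 and AHP6, which mark the pericycle and stele, had no more than 30 reads in any library. Not all genes of these tissues were so low: HMA2 had 676 to 1052 reads and BOR1 had 259 to 334. NPF7.3 had 14 to 27 reads, and 4 of the 9 other transporters listed below failed the filter. GATA23 had 0.303 ± 0.278 TPM in smr1 and 0.199 ± 0.282 TPM in Col-0, while PHO1 had 0.234 ± 0.109 TPM in smr1 and 0.225 ± 0.131 TPM in Col-0. SKOR, LBD29 and AHP6 had means between 0.077 and 0.088 TPM in smr1. In Col-0, SKOR and LBD29 had 0.095 and 0.078 TPM, and AHP6 was at 0. Among loci detected in smr1, 82.7% had a lower mean TPM than ARF19, 49.0% a lower one than LBD16 and 19.0% a lower one than PHO1.

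From ARF19 down to LBD16 each step in the order exceeded the combined SD of the neighbours and their library ranges did not overlap, in both genotypes. The step from LBD16 to the next gene was 10.6-fold in smr1 (to GATA23, at 4, 0 and 3 reads) and 11.2-fold in Col-0 (to PHO1). Below it, GATA23, PHO1, SKOR, LBD29 and AHP6 had overlapping library ranges with their neighbours in smr1, although the step from PHO1 to SKOR there exceeded the combined SD. In Col-0 the same held down to LBD29, and AHP6, at 0 in both libraries, lay apart. The top 4 genes kept their order when any library was left out of its genotype's mean, while 2 to 4 of the lower genes changed rank.

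**Figure D1:**
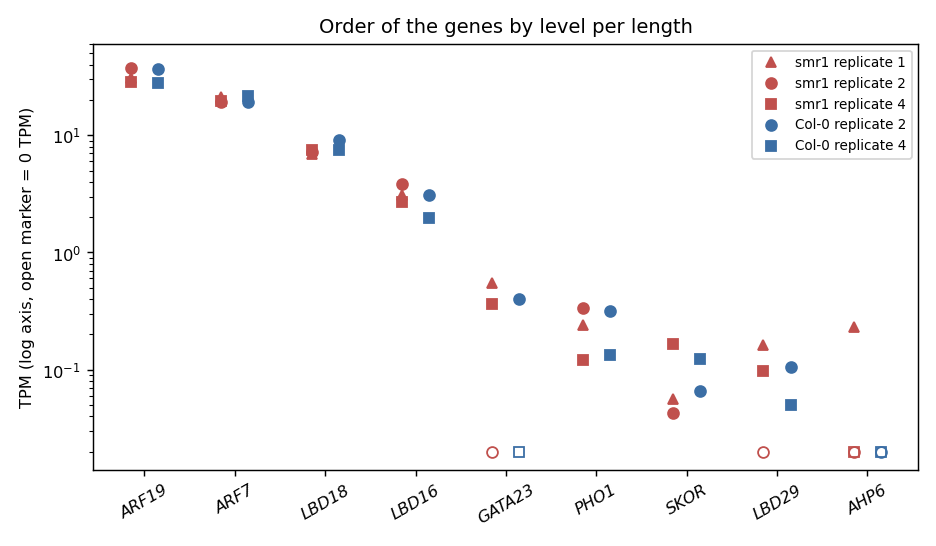
Level per length of the 9 genes in each library, in TPM on a log axis, with smr1 left of Col-0 for each gene and genes ordered by their mean in smr1; open markers stand for 0 TPM. ARF19, ARF7, LBD18 and LBD16 form a descending series between 37.7 and 1.97 TPM, and the other 5 genes lie below 0.6 TPM with mixed order.

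No difference between smr1 and Col-0 passed the test in any of these genes. Of the 9, 6 passed the expression filter (ARF7, ARF19, LBD16, LBD18, SKOR and PHO1), and edgeR called 0 of them at an adjusted p under 0.05, against 0.00496% of all 20151 loci tested (1 locus, higher in smr1). At an unadjusted p under 0.05 the number was also 0 of 6, where 6.85% of all loci tested passed (798 higher and 583 lower in smr1), as it was after adjustment by limma voom and by DESeq2, which gave an adjusted p for 4 of the 6. In all 6 tested genes the values of the 2 genotypes overlapped, while over all loci tested the genotypes did not overlap in 23.8% (all smr1 values higher in 13.7% and all lower in 10.1%). AHP6, GATA23 and LBD29, with at most 4 reads in any library, overlapped as well but were not among the loci tested. The median log2 fold change of the 6 tested genes was -0.092, with 1 positive and 5 negative, beside 0.0065 over all loci tested.

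Of the 2 activators, ARF7 was the steadier. Its level was 106, 95.3 and 100.4 CPM in smr1 replicates 1, 2 and 4, against 102 and 113 CPM in Col-0 replicates 2 and 4. The libraries of both genotypes were interleaved, with smr1 replicate 2 lowest and Col-0 replicate 4 highest. The log2 fold change was -0.10 ± 0.10 (standard error, SE) and its 95% interval ran from -0.35 to 0.14 (edgeR adjusted p = 0.861), which is 0.786-fold to 1.11-fold. With Col-0 replicate 2 or 4 left out the value was -0.18 or -0.036.

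ARF19 varied more between libraries of 1 genotype than between genotypes. It stood at 140, 175 and 134 CPM in smr1 replicates 1, 2 and 4, against 182 and 135 CPM in Col-0 replicates 2 and 4. The libraries numbered 2 were highest in both genotypes, and the other 3 lay close together. The log2 fold change, -0.083 ± 0.17 (SE), had a 95% interval of -0.50 to 0.33 (edgeR adjusted p = 0.942). Without Col-0 replicate 2 it was 0.14. Within replicate 2 the smr1 level was 0.964 times that of Col-0, and within replicate 4 it was 0.987 times. The labels do not say that a number marks a shared batch. The ratios for numbers 2 and 4 were 0.931 and 0.887 for ARF7, and 1.17 and 1.36 for LBD16. They were 1.001 and 0.899 for PHO1, and 0.601 and 1.31 for SKOR. The within-genotype SD of ARF19 was 0.24 on the log2 CPM scale, against a median of 0.12 over 1126 loci of similar level, and that of ARF7 was 0.085 against 0.12 over 1563 loci.

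The ratio of the 2 paralogues was likewise highest in the libraries numbered 2. ARF19 was 1.43, 1.98 and 1.43 times ARF7 in TPM in smr1 replicates 1, 2 and 4. In Col-0 it was 1.91 times in replicate 2 and 1.29 times in replicate 4. ARF19 exceeded ARF7 in all 5 libraries.

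No difference passed the test in the LBD genes that act below these ARFs. LBD16, which acts in the first asymmetric divisions of founder cells, was at 2.58, 3.26 and 2.35 CPM in smr1 replicates 1, 2 and 4, against 2.79 and 1.72 CPM in Col-0 replicates 2 and 4. The groups overlapped, with Col-0 replicate 4 lowest and smr1 replicate 2 highest. These levels rest on 66, 88 and 64 reads in smr1 and 68 and 46 reads in Col-0. LBD16 was the only tested gene of the 6 with a positive log2 fold change, 0.28 ± 0.29 (SE), whose 95% interval ran from -0.42 to 0.97 (edgeR adjusted p = 0.868). Without Col-0 replicate 4 it was -0.041, and without Col-0 replicate 2 it was 0.66.

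LBD18, which promotes both primordium initiation and emergence, was at 6.37, 6.74 and 7.17 CPM in smr1 replicates 1, 2 and 4. Col-0 replicates 2 and 4 had 9.04 and 7.16 CPM. Only Col-0 replicate 2 stood above the smr1 libraries, and Col-0 replicate 4 lay just under the highest of them. The log2 fold change, -0.26 ± 0.17 (SE), had a 95% interval of -0.67 to 0.15 (edgeR adjusted p = 0.774), the smallest unadjusted p of the 6 genes at 0.178. It became -0.090 or -0.43 when Col-0 replicate 2 or 4 was left out. Within replicate 2 the smr1 level was 0.745 times that of Col-0 and within replicate 4 it was 1.001 times. LBD18 was 2.26, 1.90 and 2.80 times LBD16 in TPM in smr1 replicates 1, 2 and 4, against 2.97 and 3.81 times in Col-0 replicates 2 and 4. These ratios did not overlap between the genotypes and were not tested, and this ratio was looked at after the values were seen. The nearest ratios were 2.80 in smr1 and 2.97 in Col-0, and LBD16 had 46 to 88 reads. How often ratios of other gene pairs fail to overlap was not computed. For levels of single genes, 23.8% of all loci tested did not overlap.

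LBD29, a relative of LBD16 that also acts below the ARFs, had 3, 0 and 2 reads in smr1 replicates 1, 2 and 4 and 2 and 1 reads in Col-0 replicates 2 and 4. GATA23, the founder cell factor, had 4, 0 and 3 reads in smr1 and 3 and 0 reads in Col-0. Both lay at or near the floor of 3 reads in every library, did not pass the filter, and a difference between genotypes was not detectable at this depth. Together the 2 ARFs had 4.82, 5.12 and 4.48 times the summed TPM of LBD16, LBD18, LBD29 and GATA23 in smr1 replicates 1, 2 and 4, and 4.38 and 5.25 times in Col-0 replicates 2 and 4. That ratio overlapped between the genotypes.

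**Figure D2:**
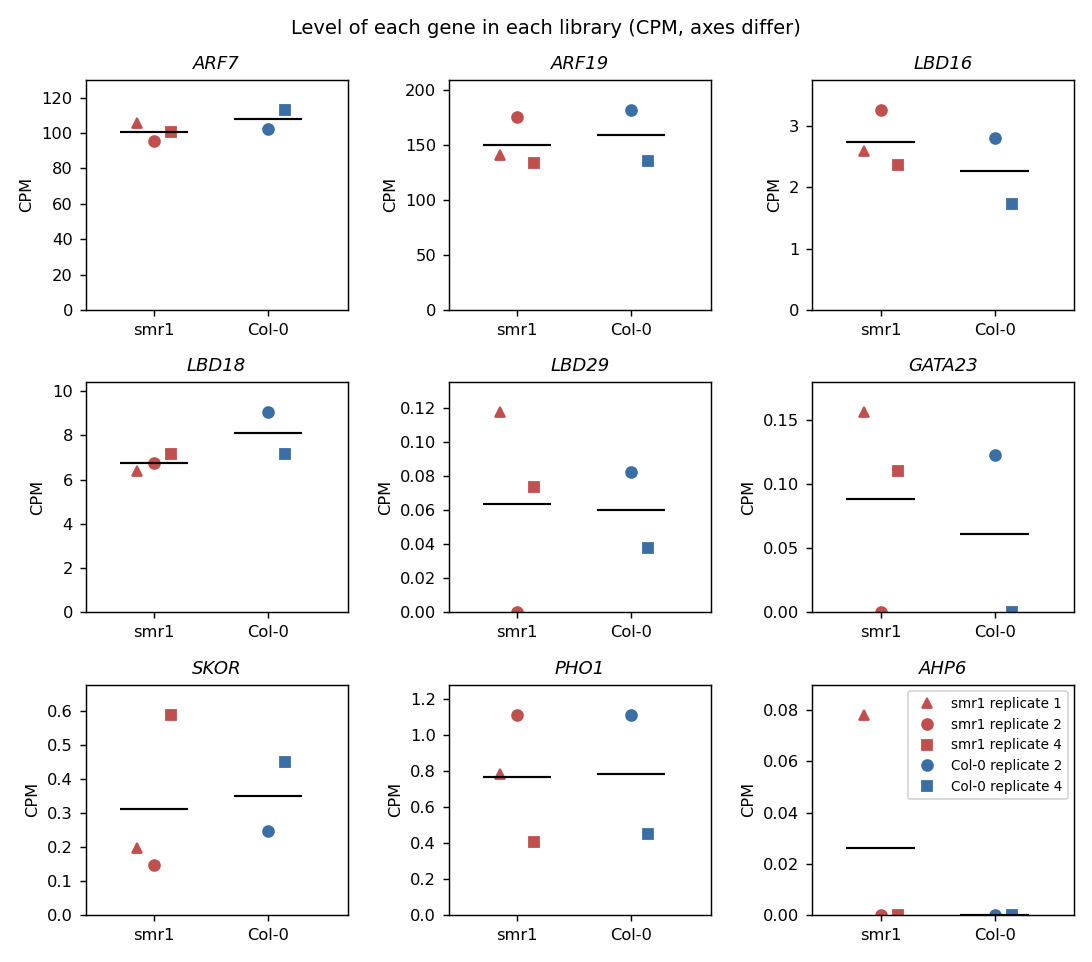
CPM of each of the 9 genes by library, smr1 left and Col-0 right, with a line at the mean of each genotype and a marker shape for each replicate number; the vertical axes differ and start at 0. The genotypes overlap in every panel, and the replicate 2 libraries are the 2 highest for ARF19, LBD16 and PHO1.

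The transport genes PHO1 and SKOR were measured at low counts. PHO1 had 0.782, 1.11 and 0.404 CPM in smr1 replicates 1, 2 and 4, against 1.11 and 0.450 CPM in Col-0 replicates 2 and 4. As with ARF19, the libraries numbered 2 were the highest and the genotypes overlapped. The log2 fold change, -0.015 ± 0.56 (SE), had a 95% interval of -1.36 to 1.33 (edgeR adjusted p = 0.998). Leaving out Col-0 replicate 2 gave 0.75, and leaving out Col-0 replicate 4 gave -0.54.

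SKOR had the opposite order of libraries, highest in the 2 numbered 4. It was at 0.196, 0.148 and 0.588 CPM in smr1 replicates 1, 2 and 4, from 5, 4 and 16 reads. Col-0 replicates 2 and 4 had 0.246 and 0.450 CPM, from 6 and 12 reads. The log2 fold change, -0.17 ± 0.70 (SE), had a 95% interval of -1.85 to 1.52 (edgeR adjusted p = 0.974). It was -0.53 when Col-0 replicate 2 was left out and 0.33 when Col-0 replicate 4 was, and without smr1 replicate 4 the gene no longer passed the filter. For SKOR and PHO1 the intervals include changes of 2-fold in either direction.

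AHP6 had 2 reads in smr1 replicate 1 and 0 in the other 4 libraries, all below the floor of 3 reads, so no comparison was possible. Its relatives AHP1, AHP2 and AHP3, which pass the phosphate on in cytokinin signalling rather than block it, had between 272 and 2263 reads in every library. AHP5 had 99, 88 and 83 reads in smr1 and 77 and 90 in Col-0, while AHP4 was as scarce as AHP6, with 0 reads in smr1 and 2 and 0 in Col-0. In bulk samples such as these, fewer nuclei of a type and less RNA per nucleus cannot be told apart.

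**Figure D3:**
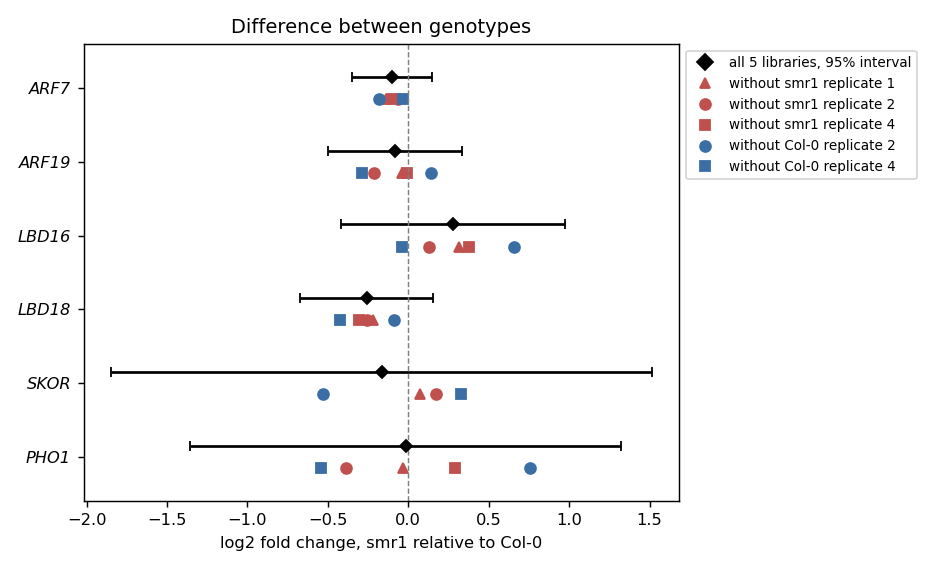
Log2 fold change of smr1 relative to Col-0 for the 6 tested genes, with the 95% interval over all 5 libraries (diamonds) and the value without each library (coloured markers); no marker is drawn for SKOR without smr1 replicate 4, which failed the filter. Every interval includes 0, and those of SKOR and PHO1 are the widest.

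By their profile over the 5 libraries, the 6 tested genes each had many genes nearer to them than the nearest of the other 5. Likeness was measured as the root mean square difference of log2 CPM after centring each gene on its own mean. The nearest gene to LBD16 was HAT9 at 0.026, and the nearest of the 6 was ARF19 at 0.20, with 782 genes nearer. EB1B was nearest to LBD18 at 0.033, and SNRK2-8 to ARF19 at 0.018. The nearest genes to ARF7, PHO1 and SKOR were AT3G48760, AT2G17210 and AT4G32860, at 0.013, 0.078 and 0.13. LBD18 and ARF19 were each other's nearest among the 6 at 0.18, with 3404 genes nearer to LBD18 and 2685 nearer to ARF19. With only 5 libraries such nearness is a description.

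Genes that feed auxin into this pathway were all detected, and no difference between the genotypes passed the test. The list held 13 receptors, carriers, Aux/IAA repressors and ARFs, and all 13 were tested. EdgeR called 0 of 13 (0 at an unadjusted p under 0.05, where 6.85% of all loci passed, and 0 by DESeq2 and by limma voom). Of the 13, 10 were positive, and the median log2 fold change was 0.13, which became -0.033 or 0.25 with Col-0 replicate 2 or 4 left out. AUX1, an auxin influx carrier, was at 242, 230.4 and 258 CPM in smr1 replicates 1, 2 and 4, against 204 and 212 CPM in Col-0 replicates 2 and 4. For AUX1 the 3 smr1 values all exceeded the 2 Col-0 values, with a log2 fold change of 0.23 ± 0.10 (SE) (edgeR adjusted p = 0.726). IAA3, an Aux/IAA repressor, had 12.7, 12.8 and 15.7 CPM in smr1, against 7.43 and 12.6 CPM in Col-0, also without overlap (log2 fold change 0.45 ± 0.25, edgeR adjusted p = 0.742). The IAA3 change was 0.12 when Col-0 replicate 2 was left out, and 0.88 when Col-0 replicate 4 was. AUX1 and IAA3 were the 2 of 13 in which the smr1 values were all higher, where this was so of 13.7% of all loci tested.

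Genes of founder cells and primordia had the largest median of the 4 lists, 0.41 over the 14 tested of 20, and edgeR called 0 of them. The median was 0.11 when smr1 replicate 4 was left out and 0.16 when Col-0 replicate 4 was. Some markers of other cell types had positive medians as well: 0.84 for meristem (2 of 3 tested positive) and 0.41 for root cap (4 of 4). The medians were 0.32 for non-hair epidermis (2 of 2) and 0.17 for phloem (2 of 4). Others were negative: -0.024 for endodermis (2 of 4 positive), -0.21 for xylem (1 of 4) and -0.30 for root hair (0 of 4). The part of these cell types in the median of the founder cell list was not tested. At an unadjusted p under 0.05 there was 1 gene of 14, MAKR4, where 6.85% of all loci passed, and DESeq2 and limma voom called 0. MAKR4, a membrane-associated regulator of the step from prebranch site to primordium, was at 1.88, 2.92 and 2.10 CPM in smr1 replicates 1, 2 and 4, against 0.452 and 1.05 CPM in Col-0 replicates 2 and 4. The genotypes did not overlap, and the levels rest on 48, 79 and 57 reads in smr1 and 11 and 28 reads in Col-0. Its log2 fold change reached 1.60 ± 0.41 (SE) (unadjusted p = 0.00694, edgeR adjusted p = 0.725, higher in 3 of 3 smr1 libraries). It became 1.12 or 2.33 when Col-0 replicate 2 or 4 was left out, and 1.39 to 1.72 when any one smr1 library was left out.

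ACR4, a receptor kinase that restrains divisions in the pericycle, was at 5.44, 6.18 and 5.77 CPM in smr1, against 5.05 and 3.56 CPM in Col-0. Its log2 fold change reached 0.43 ± 0.21 (SE) (edgeR adjusted p = 0.729), and was 0.70 or 0.19 when Col-0 replicate 2 or 4 was left out. In 4 of the tested genes of this list the smr1 values were all the higher ones and in 3 all the lower ones, where 13.7% and 10.1% of all loci tested were so. The 6 genes that did not pass the filter were LBD33, PUCHI, PLT5, PLT7, IDA and MYB93. PUCHI, a transcription factor of the young primordium, had 1, 1 and 3 reads in smr1 and 0 in both Col-0 libraries, and PLT5, a transcription factor of lateral root primordia, had 3, 6 and 4 reads in smr1 and 0 and 1 in Col-0. Its relative PLT7 had 6, 5 and 4 reads in smr1 replicates 1, 2 and 4, against 5 and 11 in Col-0 replicates 2 and 4. LBD33, IDA and MYB93 had at most 1 read in any library.

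Of 9 other transporters of the pericycle and stele, 5 were tested and edgeR called 0, with a median log2 fold change of 0.060, which was -0.017 with smr1 replicate 2 and -0.086 with Col-0 replicate 4 left out. The tonoplast aquaporin TIP2;3 was at 372, 471 and 274 CPM in smr1, against 903 and 425 CPM in Col-0. Col-0 replicate 2 was far above the other 4 libraries, and smr1 replicate 2 lay above Col-0 replicate 4. TIP2;3 was the 1 gene of the 5 at an unadjusted p under 0.05, where 6.85% of all loci passed, with a log2 fold change of -0.84 ± 0.34 (SE) (edgeR adjusted p = 0.725), which became -0.20 or -1.29 when Col-0 replicate 2 or 4 was left out. HMA4, a zinc exporter of the stele, had a log2 fold change of 0.39 ± 0.26 (SE) (edgeR adjusted p = 0.770). DESeq2 and limma voom called 0 of the list.

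The 10 genes of cytokinin relay and vascular poles had 8 tested and 0 called by edgeR, with 0 at an unadjusted p under 0.05 (against 6.85% of all loci) and 0 by DESeq2 and limma voom. The median was -0.11 on the log2 scale (6 of 8 negative), and 0.039 when Col-0 replicate 4 was left out. AHP2 was at 71.1, 67.1 and 54.9 CPM in smr1, against 72.5 and 82.7 CPM in Col-0. It was the 1 of 8 tested genes with all smr1 values under those of Col-0, as were 10.1% of all loci tested (log2 fold change -0.27 ± 0.14, edgeR adjusted p = 0.733). AHP1 had a log2 fold change of -0.36 ± 0.37 (SE) (edgeR adjusted p = 0.862), and 0.031 without Col-0 replicate 4.

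**Figure D4:**
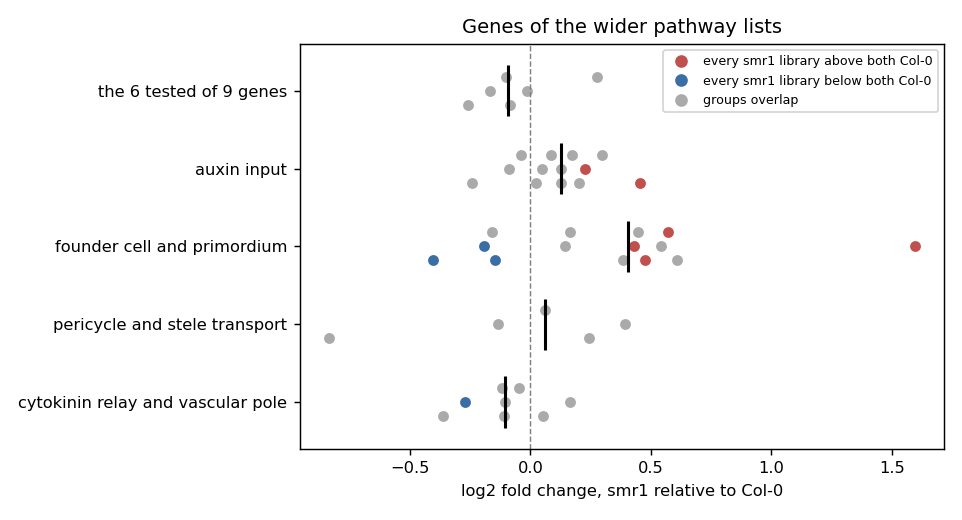
Log2 fold change of smr1 relative to Col-0 for the tested genes of each list (points, coloured by whether the 2 genotypes overlap) with the list median as a bar. The 6 tested of the 9 genes are all grey, and MAKR4 at 1.60 is the point farthest to the right.

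Apart from RGF1, the accepted markers of other root cell types had reads in every library, and none was at 0 in all 5. By summed CPM, 4 xylem markers had 862 to 1048 in smr1 and 1174 and 1068 in Col-0, and 4 endodermis markers had 32.5 to 37.4 in smr1 and 27.5 and 41.0 in Col-0. Phloem (4 markers) had 13.0 to 33.6 in smr1 and 33.2 and 17.5 in Col-0, and root hair (4 markers) had 9.25 to 16.0 in smr1 and 11.5 and 19.9 in Col-0. Non-hair epidermis (2 markers) had 222 to 242 in smr1 and 183 and 204 in Col-0, and root cap (4 markers) had 13.4 to 17.5 in smr1 and 11.1 and 13.0 in Col-0. The 4 markers of stem cell niche and meristem summed to 3.36, 7.11 and 2.76 CPM in smr1 replicates 1, 2 and 4, and 6.12 and 1.72 CPM in Col-0 replicates 2 and 4. This sum, like ARF19, LBD16 and PHO1, was highest in the libraries numbered 2, and its part in their values was not tested. WOX5, which marks the quiescent centre, made up most of that sum in the libraries numbered 2, with 3.96 CPM in smr1 and 4.56 CPM in Col-0, and RGF1 was at 0 reads in 3 libraries. The other 2 meristem markers, PLT1 and PLT2, did not overlap between the genotypes, with the smr1 values on top. PLT1 had 1.56, 2.33 and 1.51 CPM in smr1, against 1.07 and 0.937 CPM in Col-0 (log2 fold change 0.84, unadjusted p = 0.0319, edgeR adjusted p = 0.725). PLT2 had 0.782, 0.814 and 0.625 CPM in smr1, against 0.411 and 0.150 CPM in Col-0 (log2 fold change 1.40, unadjusted p = 0.0273, edgeR adjusted p = 0.725). The non-hair markers WER and GL2 also did not overlap, with log2 fold changes of 0.36 and 0.27 (unadjusted p = 0.0441 and 0.0364, edgeR adjusted p = 0.725 for both). The smr1 values were also all higher for CVP2 (phloem), VND7 (xylem), BRN1 and BRN2 (root cap). They were all lower for CESA7, CESA8 (xylem) and RHD6 (root hair). CVP2 changed by 0.93 and CESA8 by -0.28 (unadjusted p = 0.00439 and 0.0298, edgeR adjusted p = 0.725 for both). Over all loci tested, 23.8% did not overlap and 6.85% had an unadjusted p under 0.05.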

How the data were processed

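The deposited tables hold, per the file headers, an expected count and a TPM value for each of 41671 transcript models in 5 libraries. The submitters' processing notes list Salmon 0.7.2, CASAVA and TAIR10 but no roles, and per the labels the kit was stranded. For strand setting and read filters nothing is stated in those sources. Lengths divisible by 3 made up 93.36% of the models, which are thus coding lengths, and reads of untranslated regions would mostly go uncounted.

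Expected counts were summed per locus, rounded, and tested with edgeR 4.0.16 in R 4.3.3 over all loci (minimum count 10, minimum total 15, TMM, robust quasi-likelihood F tests, two-sided, Benjamini-Hochberg at 0.05). Each fold change sets smr1 over Col-0, and SE values come from the F statistic. DESeq2 1.42.0 and limma voom (3.58.1), other scalings, no filter, a replicate block and leaving out each library were alternatives. The deposited TPM values, summed per locus, served only to order levels.

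The members and lists were chosen with earlier results of these data known. Of 81 list entries, 78 were kept, since the annotation gave PGLR and 2 cortex markers no such symbol. Named from the lists were called genes or else the 2 with the smallest p. After seeing the data, the families of ARF and LBD genes were taken by annotated symbol. AHP3 to AHP5, HMA2, BOR1, NPF7.3, the untested founder cell genes and single markers were also named after seeing them.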

Additional observations from a re-analysis of the deposited data

How the results depend on the processing

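No alternative called any of the 6 tested genes. With 11 alternatives each (10 for SKOR, which failed the filter without smr1 replicate 4), ARF7 and LBD18 kept a negative log2 fold change, and the other 4 changed sign under some. SKOR was at 0.015 with the replicate block and ran from -0.53 to 0.33 over the libraries left out (0.070 and 0.17 without smr1 replicates 1 and 2). PHO1 was at 0.050 with library totals only, 0.014 with limma voom, and -0.54 to 0.75 over the libraries left out (0.29 without smr1 replicate 4). LBD16 ran from -0.041 to 0.66, ARF19 from -0.29 to 0.14 and AHP1 from -0.68 to 0.031 in the same way. Library totals only shifted the median of all loci to 0.065. The median of the 6 genes lay between -0.16 and 0.025 over the libraries left out. List medians ran from -0.033 to 0.25 for auxin input, 0.11 to 0.50 for founder cells and primordia, -0.086 to 0.066 for transport, and -0.19 to 0.039 for cytokinin relay. Loci called higher numbered 1 in the main test, 3 with no expression filter, 30 with DESeq2, 0 with limma voom, 2 with the replicate block and 0 without any one library. Loci called lower numbered 0, and 11 with DESeq2. Without a Col-0 library the lone one is assumed to vary like the smr1 libraries. Between 2 and 4 genes changed rank in level in smr1 and 4 in Col-0 with a library left out. Deviations of same-numbered libraries correlated at 0.397 (number 2) and 0.185 (number 4) across loci. Col-0 replicate 4 correlated nearly as much with smr1 replicate 1, at 0.171. With 2 Col-0 libraries the deviations of 1 mirror those of the other, so these correlations are not independent. They cannot show that same-numbered libraries belong together, and the labels do not say that a number marks a shared batch. At these counts, changes of LBD29, GATA23 and AHP6 could not be measured.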
